A study of Mus musculus with 24 samples.

Results

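B16-OVA is a melanoma line from C57BL/6 mice that carries the ovalbumin antigen. The RNA-seq profiles described here come from B16-OVA cells with a short hairpin against Fto (shFto, 3 libraries) and from B16-OVA cells with a control hairpin (shNC, 3 libraries), which are 6 of the 24 samples of the series. All 6 libraries were chosen by their labels, and every gene of the count table was considered. Of the 24421 genes in that table, 11718 had enough counts in these libraries to be tested.

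Both kinds of cell grew in medium with 5 µg/mL puromycin, and the labels name no other agent for the tumour cell RNA-seq. The labels give the genotype as shFto without saying which hairpin line it was, and whether the 3 libraries of each are separate cultures is not said. The p-values below therefore speak only of the spread among the libraries, part or all of which can be technical. The other samples are OT-I CD8 T cells co-cultured with such tumour cells, and ATAC-seq and m6A-seq of the tumour cells themselves.

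FTO belongs to the iron- and alpha-ketoglutarate-dependent dioxygenases, a superfamily that also holds DNA and histone demethylases, prolyl hydroxylases and collagen hydroxylases. It removes methyl groups from adenosine in RNA, among them N6-methyladenosine (m6A), a mark that reader proteins use to set the splicing, export, translation and decay of messenger RNA. In melanoma, FTO is known as a gene that tumour cells depend on for growth and for resistance to immune attack.

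The hairpin's target was measured first. Fto had 31.7, 33.5 and 28.3 CPM in the shFto libraries, against 107, 108 and 91.8 CPM in the shNC libraries, where CPM is the count per unit of library size after TMM scaling between libraries. The groups did not overlap, and the fall was about the same in each shFto library (log2 fold change -1.72, SE 0.0979, edgeR quasi-likelihood adjusted p = 1.6e-10). The genes around it did not share that fall. Of the 9 other genes within 2 Mb of Fto that could be tested, Chd9, a gene for a chromatin remodeller (0.47), and Rbl2, a pocket protein of the cell cycle (0.35), rose, and Lpcat2, a phospholipid enzyme (-0.57), and the matrix protease Mmp2 (-0.94) fell. The call of Mmp2, at 3.18 CPM or less on average in either group, ended with DESeq2 (adjusted p = 0.0535) and without shFto replicate 1 (0.0772), shFto replicate 2 (0.158), shNC replicate 1 (0.0574) or shNC replicate 3 (0.136). Aktip, Irx3, Irx5, Capns2 and Rpgrip1l did not pass the test, although Irx5 (0.22) did when gene span was modelled (adjusted p = 0.0455). Rpgrip1l, a ciliary gene that runs away from Fto on the other strand, had 26.5, 26.2 and 23 CPM in the shFto libraries, against 19.6, 24 and 23.8 CPM in the shNC libraries, and the groups overlapped.

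Because Fto and Rpgrip1l start within the same stretch of chromosome 8, that stretch is printed here from RefSeq (build GRCm38.p6, chr8:91313275-91313574, plus strand, the strand of Fto). It runs from 250 bases before to 50 bases after the start on which the window was built. That start lies inside the gene span that RefSeq lists for Fto. The capitals mark the 198 bases that also lie in the window of Rpgrip1l.
Fto: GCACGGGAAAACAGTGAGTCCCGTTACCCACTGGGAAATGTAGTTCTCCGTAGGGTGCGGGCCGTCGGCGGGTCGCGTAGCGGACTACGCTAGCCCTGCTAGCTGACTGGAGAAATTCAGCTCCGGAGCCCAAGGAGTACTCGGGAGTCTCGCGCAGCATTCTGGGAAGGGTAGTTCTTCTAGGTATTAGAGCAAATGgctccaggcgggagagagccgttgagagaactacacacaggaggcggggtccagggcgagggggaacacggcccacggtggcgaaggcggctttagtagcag
An ATAC-seq peak, a region of open chromatin that a transposase can reach, lay over this window in all 6 ATAC libraries. Its fold enrichment, the peak caller's value, was 28.1, 26.9 and 29.9 in the shFto libraries, against 28.0, 29.5 and 28.7 in the shNC libraries, and the groups overlapped.

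The 6 libraries held 11152404 to 19665589 counts, and the 10 most abundant genes took 4.17% to 4.63% of them. Of the tested genes, 3841 (32.8%) passed edgeR's quasi-likelihood test at a Benjamini-Hochberg adjusted p under 0.05 and are called changed below. Of these, 1864 (15.9% of those tested) were higher and 1977 (16.9%) lower in shFto, and 381 (3.25%) differed at least 2-fold, 164 of them higher (1.4%) and 217 lower (1.85%). The CPM of the groups did not overlap for 5290 genes (45.1%). The counts for higher and lower were 2377 and 1587 when library totals replaced TMM scaling, which put the all-gene median of the log2 fold change at 0.05. Without shFto replicate 1 they were 1222 and 1246, and most list counts below were lower as well. List counts are to be read beside the shares over all tested genes, 15.9% higher and 16.9% lower. Some lists lay near the 32.8% called, such as clock genes (36.4%), DNA repair genes (37.8%) and cyclic nucleotide genes (39%). Changes were mostly small: the quartiles of all tested genes lay at -0.23 and 0.23 on the log2 scale, and the median was 0.44 among the genes that rose and -0.44 among those that fell. The markers matched the melanoma label in both groups. All 7 melanocytic markers checked were measured, with a summed level of 17652 to 18255 CPM in shFto and 14414 to 15271 CPM in shNC libraries. Of 17 immune markers, 10 had no count in any library, including Ptprc, Cd3e and Cd8a, and only Lck, Itgax and Coro1a could be tested. Some genes overlap on the chromosome, and because the strand setting of the counting is not given in the sources used here, reads of such neighbours may not be told apart. Among the genes named below, Cdk2, Alkbh2, Hk1 and Rbl2 share over 10% of their span with another tested gene.

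**Figure D1:**
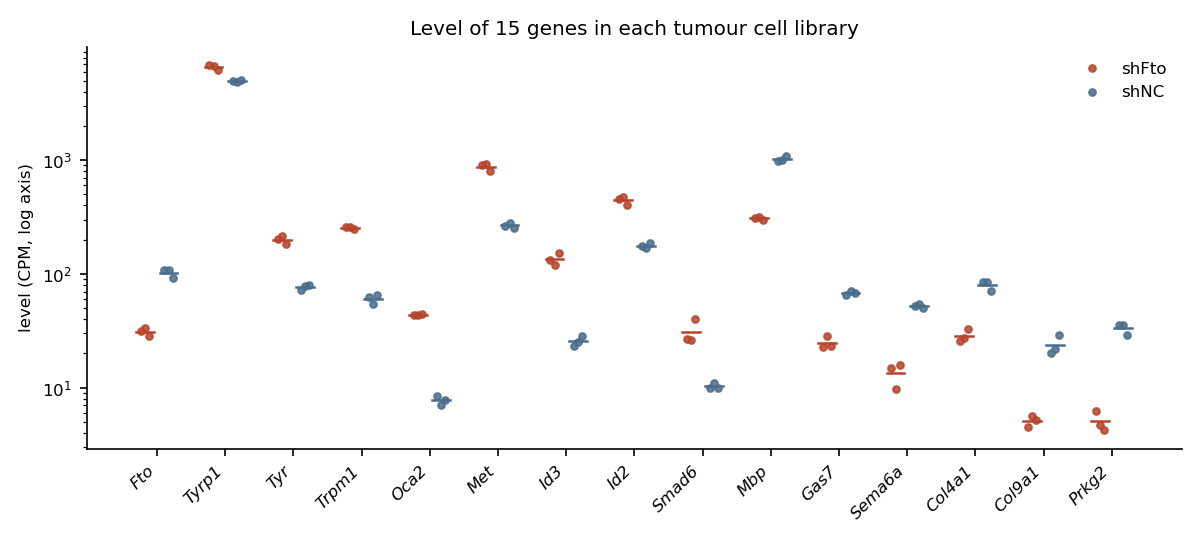
Level of 15 genes in CPM, on a log axis, in each shFto (left) and shNC (right) library of B16-OVA cells, with the mean of 3 libraries as a line. The groups do not overlap for any of these genes, most of which are among the largest changes, where no overlap was a condition of choice. Fto lies at 28.3 to 33.5 CPM in shFto and 91.8 to 108 CPM in shNC cells.

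Pigment cells build melanin in melanosomes, organelles related to lysosomes that need enzymes, ion transporters and a trafficking machinery of their own. Of 43 tested melanosome and pigment genes, 20 rose and 2 fell, with a median log2 fold change of 0.24, against a median of -0.0028 over all tested genes. The changes were largest among ion transporters and channels and smaller among the abundant enzymes and structural proteins. Slc24a4, which exchanges sodium for calcium, had 20.7, 17.2 and 25.8 CPM in the shFto libraries, against 3.34, 3.95 and 4.07 CPM in the shNC libraries. Sytl2, an effector of the small GTPase Rab27a that tethers melanosomes, had 246, 230.4 and 239 CPM in the shFto libraries, against 87.6, 89.1 and 101 CPM in the shNC libraries (log2 fold change 1.37, SE 0.0817, edgeR quasi-likelihood adjusted p = 3.37e-10). Rab27a, the GTPase it binds, rose by less (0.52), as did Atp7a (0.63), the pump that supplies copper to tyrosinase, and Cd63 (0.59), which sorts cargo into early melanosomes. Tyr, the rate-limiting enzyme of melanin synthesis, had 202, 214 and 183 CPM in the shFto libraries, against 72.8, 77.8 and 80.5 CPM in the shNC libraries. In each of these genes every shFto library lay above every shNC library.

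The most abundant transcripts of the lineage also rose. Tyrp1, an enzyme that acts after tyrosinase, had 6839, 6726 and 6194 CPM in the shFto libraries, against 5021, 4828 and 5037 CPM in the shNC libraries (log2 fold change 0.41, SE 0.0873, edgeR quasi-likelihood adjusted p = 0.00143). That is a difference of 1624 CPM in the mean, the largest rise of any gene on this scale. Gpnmb, a melanosome glycoprotein, had a log2 fold change of 0.50, and Pmel, which forms the fibrils on which melanin is laid down, one of 0.36. The fall in this list was in subunits of organelle sorting complexes, Bloc1s4 (-0.76) and Hps6 (-0.50). The call of Hps6 ended when the replicate number and gene span were both modelled (adjusted p = 0.0569).

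Among 18 tested regulators of the melanocyte and neural crest lineage, 7 rose and 2 fell (4 without shFto replicate 3). Mitf, the master transcription factor of melanocytes, had 596, 611 and 558 CPM in the shFto libraries, against 371, 412 and 349 CPM in the shNC libraries (log2 fold change 0.64, SE 0.0848, edgeR quasi-likelihood adjusted p = 1.53e-05), and the groups did not overlap. The coactivator gene Cited1 rose (1.45), as did Bhlhe41 (0.64), a repressor of transcription, Snai2 (1.55), a factor of neural crest cells, and Tbx2 (0.44). Sox4 (-0.75) and the nuclear receptor gene Nr2f2 (-0.48) fell. Sox10, which with Pax3 drives Mitf in the embryo, had 631, 579 and 758 CPM in the shFto libraries, against 790.2, 787 and 753 CPM in the shNC libraries, and these values overlapped (log2 fold change -0.24, SE 0.094, edgeR quasi-likelihood adjusted p = 0.0527). Sox10 passed the test as a fall without shFto replicate 3 (adjusted p = 0.00203), with DESeq2 (0.0319), with no filter (0.0322) and with the replicate number as a block (0.0441). Pax3 (0.13) did not pass. The smaller rises of Bhlhe40 (0.28) and Sox9 (0.57) were not stable: the call of Bhlhe40 ended without shNC replicate 1 (adjusted p = 0.0555), and that of Sox9 with DESeq2 (0.0689) and without any library but shNC replicate 2 (up to 0.127).

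MITF and its relatives TFEB and TFE3 bind E-boxes, 6-base sites read as CATGTG or CACGTG. Promoter windows of the same kind as for Fto were searched for both on both strands, counting a CACATG on the gene's strand as CATGTG on the other. Of 32851 windows in the RefSeq table, 14.2% held CATGTG, 7.15% held CACGTG and 20.4% held either. A window was listed for 36 of the 43 pigment genes, and 19 of those 36 (52.8%) held either site. Among the pigment genes that rose, 9 of 15 held a site, against 10 of 21 of the other members. Over all tested genes with a window, 23.4% of those that rose, 20.2% of those that fell and 20.3% of those not called held a site. These matches are letters in a window and not measured binding.

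Windows of pigment genes that rose and hold a site are shown, with the window of Met, which is described below. Capitals mark the E-box. Each is given on the gene's own strand, in GRCm38.p6: Tyr chr7:87493463-87493762 (minus), Tyrp1 chr4:80833963-80834262 (plus), Oca2 chr7:56239509-56239808 (plus), Trpm1 chr7:64153585-64153884 (plus, the first of 2 windows listed), Slc24a4 chr12:102128477-102128776 (plus) and Met chr6:17463707-17464006 (plus).
Tyr: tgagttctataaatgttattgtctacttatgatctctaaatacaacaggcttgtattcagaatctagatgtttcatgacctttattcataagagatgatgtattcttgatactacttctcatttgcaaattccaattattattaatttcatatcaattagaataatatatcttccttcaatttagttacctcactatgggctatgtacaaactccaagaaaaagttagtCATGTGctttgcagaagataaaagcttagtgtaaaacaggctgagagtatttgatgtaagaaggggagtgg
Tyrp1: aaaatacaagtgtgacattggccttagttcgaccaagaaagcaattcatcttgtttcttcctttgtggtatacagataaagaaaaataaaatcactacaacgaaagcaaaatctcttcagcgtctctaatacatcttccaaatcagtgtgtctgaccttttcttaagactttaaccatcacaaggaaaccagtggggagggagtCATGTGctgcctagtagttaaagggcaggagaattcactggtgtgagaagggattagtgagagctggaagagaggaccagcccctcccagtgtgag
Oca2: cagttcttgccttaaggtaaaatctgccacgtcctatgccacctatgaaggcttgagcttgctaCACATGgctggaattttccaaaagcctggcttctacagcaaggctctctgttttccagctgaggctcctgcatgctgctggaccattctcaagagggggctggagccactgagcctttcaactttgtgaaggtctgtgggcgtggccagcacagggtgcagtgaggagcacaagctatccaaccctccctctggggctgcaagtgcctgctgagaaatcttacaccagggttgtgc
Trpm1: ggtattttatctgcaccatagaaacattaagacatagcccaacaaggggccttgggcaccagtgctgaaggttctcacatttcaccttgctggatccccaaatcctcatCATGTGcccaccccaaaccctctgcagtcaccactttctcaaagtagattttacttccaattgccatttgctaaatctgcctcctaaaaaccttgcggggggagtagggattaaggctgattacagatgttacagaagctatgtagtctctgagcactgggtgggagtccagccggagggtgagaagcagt
Slc24a4: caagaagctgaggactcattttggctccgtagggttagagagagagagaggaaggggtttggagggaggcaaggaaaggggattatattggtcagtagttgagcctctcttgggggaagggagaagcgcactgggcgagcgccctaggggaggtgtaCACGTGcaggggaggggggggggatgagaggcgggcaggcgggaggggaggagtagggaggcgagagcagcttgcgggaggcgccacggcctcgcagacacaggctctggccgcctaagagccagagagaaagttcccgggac
Met: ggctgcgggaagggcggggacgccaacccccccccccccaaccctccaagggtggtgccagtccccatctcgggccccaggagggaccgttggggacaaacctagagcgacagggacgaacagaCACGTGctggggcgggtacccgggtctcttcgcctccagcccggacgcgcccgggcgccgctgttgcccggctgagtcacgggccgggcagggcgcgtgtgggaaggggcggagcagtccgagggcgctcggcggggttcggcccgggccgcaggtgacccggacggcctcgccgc
In Tyr and Tyrp1 the site starts 21 and 46 bases before the start on which the window was built. For Tyrp1, Oca2 and Met that start lies inside the gene span that RefSeq lists. An ATAC peak lay over the Slc24a4 window in 3 of 3 shFto libraries and 1 of 3 shNC libraries. The fold enrichment over the Trpm1 windows was 17.8, 17 and 19.3 in the shFto libraries, against 16.5, 11.9 and 10.1 in the shNC libraries, without overlap. For Tyr it was 9.82, 8.96 and 9.83 in shFto against 9.02, 7.33 and 8.18 in shNC libraries, which overlapped. No peak of any library lay over the Oca2 window.

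Myelin and Schwann cell genes, which mark another fate of the neural crest, moved the other way. Of 19 tested, 10 fell and 1 rose, with a median of -0.47. Mbp, a structural protein of myelin, was the most abundant of them and had 311, 314 and 300.1 CPM in the shFto libraries, against 984, 1009.9 and 1098 CPM in the shNC libraries. Gas7, a cytoskeletal protein of neurons and glia, had 22.8, 28.3 and 23.2 CPM in the shFto libraries, against 65.8, 70.1 and 68.1 CPM in the shNC libraries (log2 fold change -1.47, SE 0.103, edgeR quasi-likelihood adjusted p = 3.47e-09), and Cadm4, an adhesion protein between axons and Schwann cells, had a log2 fold change of -0.81. The receptor gene Erbb3, through which neuregulin signals to Schwann cells, fell as well (-0.60). The summed level of the 19 genes was 929 to 984 CPM in shFto, against 1834 to 1968 CPM in shNC libraries. Mbp alone averaged 308 CPM in shFto and 1031 CPM in shNC libraries and so weighs heavily in this sum. Fabp7, a fatty acid binding protein of glia, rose (0.59), a call that ended without shNC replicate 1 (adjusted p = 0.0726) or shNC replicate 2 (0.0571).

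BMP and TGF-beta ligands bind pairs of receptor kinases, which activate SMAD proteins, and SMADs in turn induce the ID genes and their own inhibitors. Of 19 tested SMADs and SMAD targets, 11 rose and 1 fell, with a median of 0.39 that ranged from 0.25 to 0.51 over the alternative settings. All 3 tested ID genes, whose products block basic helix-loop-helix factors, rose. Id1 had 15.7, 14.4 and 17.2 CPM in the shFto libraries, against 1.97, 1.92 and 2.6 CPM in the shNC libraries (log2 fold change 2.87, SE 0.194, edgeR quasi-likelihood adjusted p = 2.17e-09). Id2, the most abundant, had 458, 471 and 403 CPM in the shFto libraries, against 177, 169 and 186 CPM in the shNC libraries. Smad6, an inhibitory SMAD that BMP signalling itself induces, had 26.9, 26.2 and 40 CPM in the shFto libraries, against 9.95, 11 and 9.9 CPM in the shNC libraries (log2 fold change 1.60, SE 0.157, edgeR quasi-likelihood adjusted p = 4.43e-07), with shFto replicate 3 well above the other two. The member that fell was Ltbp3 (-0.52), which holds TGF-beta in the matrix.

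Upstream of the SMADs the changes were mixed. Of 11 tested receptors, 3 rose and 4 fell, among them Bmpr2 (0.78), a type II receptor for BMPs, and Tgfbr2 (0.47) upward, and the activin receptor gene Acvr2b (-0.90) and the co-receptor gene Eng (-0.40) downward. Without shNC replicate 2, 2 receptors fell. Of 7 tested ligands, 1 rose and 3 fell. Of the ligands 1 fell without shFto replicates 1 or 2 or shNC replicate 2, and 0 rose with DESeq2 and without shFto replicates 1 or 2 or shNC replicates 1 or 3. Of 5 tested inhibitors, Nog, an extracellular BMP antagonist (2.53), and Fstl1 (1.83) rose and the pseudoreceptor gene Bambi (-0.62) fell. Nog was scarce, with 5.59, 4.62 and 8.1 CPM in the shFto libraries, against 1.29, 0.755 and 1.19 CPM in the shNC libraries, but its groups did not overlap. Wfikkn2, a secreted inhibitor of myostatin and related ligands, had 16.1, 17.7 and 17.6 CPM in the shFto libraries, against 7.37, 4.59 and 6.04 CPM in the shNC libraries (log2 fold change 1.52, SE 0.171, edgeR quasi-likelihood adjusted p = 2.32e-06).

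Growth factor signalling through ERK is held in check by genes that it induces, such as Sprouty proteins and dual-specificity phosphatases. Of 33 tested ERK feedback and early response genes, 12 rose and 4 fell, with a median of 0.30. The falls were 2 without shFto replicate 1 or shNC replicate 1. Dusp4, a nuclear phosphatase of ERK, had 231, 227 and 289 CPM in the shFto libraries, against 159, 159 and 141 CPM in the shNC libraries (log2 fold change 0.70, SE 0.0943, edgeR quasi-likelihood adjusted p = 1.78e-05), and Etv5, an ETS factor (1.03), rose too. Nr4a3, an orphan nuclear receptor, rose (1.79), while its relative Nr4a2 fell (-0.77).

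Among 22 tested receptor tyrosine kinases, 6 rose and 4 fell, the falls being 2 without shFto replicate 2 or shNC replicate 2. Met, the receptor for hepatocyte growth factor, had 908, 922 and 807 CPM in the shFto libraries, against 264, 282 and 256 CPM in the shNC libraries (log2 fold change 1.72, SE 0.0865, edgeR quasi-likelihood adjusted p = 2.5e-11). Its mean was 879 ± 63 CPM in shFto and 267 ± 13.6 CPM in shNC cells (SD, n = 3 each), the highest level of any receptor of this list that changed. Epha7 (0.57) and the scarce Epha4 (2.41) rose, and besides Erbb3 the receptor gene Ephb4 (-0.67) fell. Of 17 growth factors for such receptors, 5 fell and 1 rose. Nrtn, a ligand of the RET co-receptors, had 2.82, 2.62 and 2.79 CPM in the shFto libraries, against 12.5, 12.8 and 7.52 CPM in the shNC libraries. Pdgfa (-0.72) and Nrg2 (-1.10) also fell, and Pros1, a ligand of the TAM kinases, rose (0.60).

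Cyclic nucleotides carry the signal of melanocortin to MITF in pigment cells. Of 41 tested genes of their pathway, 8 rose and 8 fell, with a median of 0.16 (0.06 to 0.21 over the alternative settings). The rises were 5 without shNC replicate 3, and the falls were 4 without shNC replicate 2 and 5 without shFto replicates 1 or 2 or shNC replicate 3. The kinase gene Prkg2, activated by cyclic GMP, had 6.23, 4.71 and 4.2 CPM in the shFto libraries, against 35.2, 35.8 and 29.3 CPM in the shNC libraries. Among the adenylyl cyclase genes that fell, Adcy6 had a log2 fold change of -0.69, and Adcy1, at 0.16, 0.174 and 0.203 CPM in the shFto libraries, against 1.9, 1.34 and 1.62 CPM in the shNC libraries, one of -3.10. Pde4d, which breaks down cyclic AMP, had 7.72, 7.5 and 9.02 CPM in the shFto libraries, against 3.42, 3.54 and 1.97 CPM in the shNC libraries (log2 fold change 1.44, SE 0.234, edgeR quasi-likelihood adjusted p = 0.000131).

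**Figure D2:**
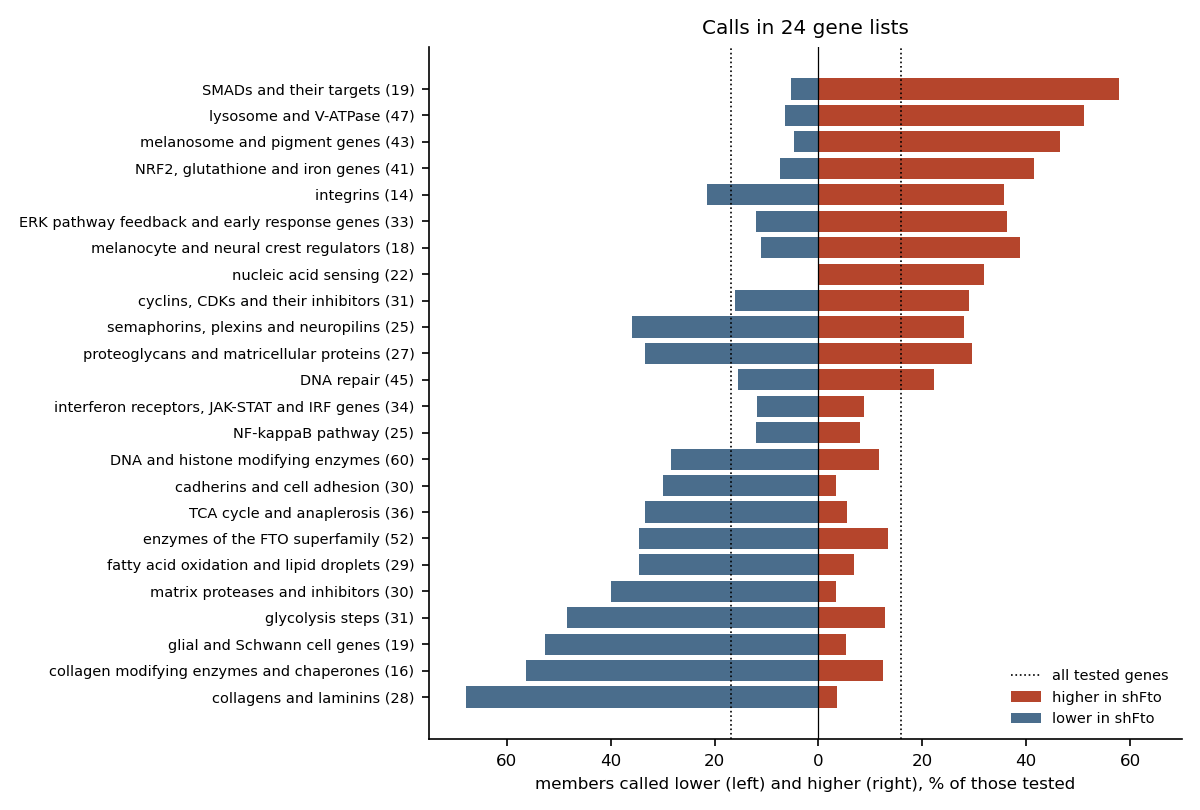
Share of the tested members of 24 gene lists called higher (right) or lower (left) in shFto than in shNC cells, in percent, with the number tested in parentheses. The dotted lines give the shares over all tested genes, 15.9% higher and 16.9% lower; of the lists shown, collagens and laminins reach furthest to the left (19 of 28) and SMADs and their targets furthest to the right (11 of 19).

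Many genes of the extracellular matrix were lower in shFto cells. Collagens form fibrils and sheets, and laminins the scaffold of basement membranes. Of 28 tested collagen and laminin genes, 19 fell and 1 rose, with a median of -1.04, and 14 of the 19 fell at least 2-fold. Col4a1, a chain of the basement membrane collagen, had 25.5, 27.4 and 32.7 CPM in the shFto libraries, against 85.4, 84.3 and 70.5 CPM in the shNC libraries (log2 fold change -1.49, SE 0.109, edgeR quasi-likelihood adjusted p = 6.29e-09). Col9a1, a collagen that coats fibrils, had 4.52, 5.67 and 5.22 CPM in the shFto libraries, against 20.4, 22.1 and 28.8 CPM in the shNC libraries, and Col5a1, which sets fibril width, a log2 fold change of -1.06. The member that rose was Col12a1, which links fibrils to each other and had 15.6, 14.2 and 14.2 CPM in the shFto libraries, against 3.11, 3.72 and 2.53 CPM in the shNC libraries (log2 fold change 2.22, SE 0.186, edgeR quasi-likelihood adjusted p = 4.28e-08). The rises were 3 with library totals or without shNC replicate 3 and 2 without shFto replicate 2. Summed over the list, levels were 630 to 705 CPM in shFto and 899 to 950 CPM in shNC libraries. Markers of fibroblasts, which make collagen, were checked too. Of 8 checked, 4 could be tested, Col1a1, Col1a2, Pdgfra and Postn, of which the first 3 fell. Col1a1 and Col1a2 are themselves collagen genes, so their fall is not separate from that of the collagens. The markers that fell were 1 without shFto replicate 2 or shNC replicates 1 or 3, and 2 with DESeq2 or library totals. The 4 tested markers, 2 of them these collagens, summed to 6.18 to 7.67 CPM in shFto and 12.3 to 15.8 CPM in shNC libraries. Of the markers not tested, Thy1 had no count in any library, and Lum and Dcn had at most 4. The part of fibroblasts in the result was not tested.

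Enzymes and chaperones that modify collagen followed, with 9 of 16 lower and 2 higher and a median of -0.27. Pcolce, which helps to cleave procollagen (-0.86), Serpinh1, the collagen chaperone HSP47 (-0.55), and the glycosyltransferase gene Colgalt1 (-0.41) fell. The lysyl hydroxylase gene Plod1 rose (0.39). The number that fell was 3 without shFto replicate 1 and 5 without shNC replicate 2, and 1 rose with gene span modelled, with the replicate number as a block and without any 1 library but shFto replicate 3 or shNC replicate 3. Of 30 matrix proteases and their inhibitors, 12 fell and 1 rose, with a median of -0.34 (-0.22 without shFto replicate 3). Adam23, a disintegrin without protease activity, had 5.59, 5.06 and 4.81 CPM in the shFto libraries, against 14.2, 16.1 and 16.2 CPM in the shNC libraries, and the inhibitors Timp2 (-0.58) and Serpine2 (-1.07) fell beside it. Adam10, a sheddase of many surface proteins, rose (0.81).

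Not all matrix genes fell. Of 27 proteoglycans and matricellular proteins, 9 fell and 8 rose. Sparc, which binds collagen and is abundant in melanoma, had 927, 978 and 875 CPM in the shFto libraries, against 543, 532 and 524 CPM in the shNC libraries (log2 fold change 0.80, SE 0.0815, edgeR quasi-likelihood adjusted p = 7.18e-07), and Fbln5 (0.77) and Thbs3 (1.12) rose with it. The heparan sulfate proteoglycan genes Gpc1 (-0.78) and Agrn (-0.60) fell, as did Emilin1 (-0.75), a protein of elastic fibres. Enzymes that edit heparan sulfate changed in both directions. Hpse, which cuts the chains, had 19.1, 22.8 and 18.2 CPM in the shFto libraries, against 5.92, 6.22 and 5.83 CPM in the shNC libraries (log2 fold change 1.73, SE 0.153, edgeR quasi-likelihood adjusted p = 9.98e-08). Sulf2, which removes sulfate from them outside the cell, had 31.7, 29 and 29.6 CPM in the shFto libraries, against 100.1, 101 and 90.3 CPM in the shNC libraries (log2 fold change -1.69, SE 0.0911, edgeR quasi-likelihood adjusted p = 8.08e-11). Of 10 tested sulfotransferases, 5 fell (3 without shFto replicates 1 or 2) and 1 rose, among them Ndst3 (-1.13) and Ndst1 (-0.45) downward and Hs3st1 (1.60) upward.

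Integrins, the receptors that hold cells to the matrix, rose in 5 and fell in 3 of 14 tested members, with a median of 0.28. Itga5, the fibronectin receptor chain, had 35.4, 31.5 and 36.2 CPM in the shFto libraries, against 16.9, 12.8 and 16.9 CPM in the shNC libraries (log2 fold change 1.15, SE 0.127, edgeR quasi-likelihood adjusted p = 1.97e-06), and Itga9 (0.96) and Itgb3 (0.62) rose as well. Itgb5 (-0.91), Itga6, the laminin receptor chain (-0.49), and the scarce Itgb8 (-2.32) fell. Of 30 cadherins and other adhesion molecules, 9 fell and 1 rose (0 without shFto replicate 2 and 2 with library totals). N-cadherin, encoded by Cdh2, had a log2 fold change of -0.56, and Pcdh1, a protocadherin, one of -2.0.

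Semaphorins are guidance cues that signal through plexins and neuropilins, and 16 of the 25 tested members of these families changed, 7 upward and 9 downward, with a median of -0.32. Close relatives moved apart. Sema6d had 62.2, 58.4 and 64.2 CPM in the shFto libraries, against 17.8, 19.9 and 15.4 CPM in the shNC libraries, while Sema6a had 15, 9.77 and 15.9 CPM in the shFto libraries, against 52.3, 54.5 and 50.2 CPM in the shNC libraries. Of the neuropilins, Nrp2 had 127, 130.3 and 119 CPM in the shFto libraries, against 277, 268 and 241 CPM in the shNC libraries (log2 fold change -1.06, SE 0.0813, edgeR quasi-likelihood adjusted p = 1.12e-08), whereas Nrp1 rose (0.55, named after its value was seen). Plxnd1 (0.62) and Plxnc1 (0.92), receptors of different semaphorins, rose, and Plxnb1 fell (-0.71). Among other guidance genes, 4 of 15 fell and 1 rose, with 0 rising with DESeq2, with gene span modelled and without shFto replicates 1 or 2 or shNC replicate 3, and 2 with library totals, no filter or the block. The teneurin gene Tenm4 had 9.63, 11.8 and 13 CPM in the shFto libraries, against 40.9, 43.3 and 36.3 CPM in the shNC libraries, and Unc5c (-0.65), a netrin receptor, and Rgma (-0.95), a repulsive cue, fell too.

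**Figure D3:**
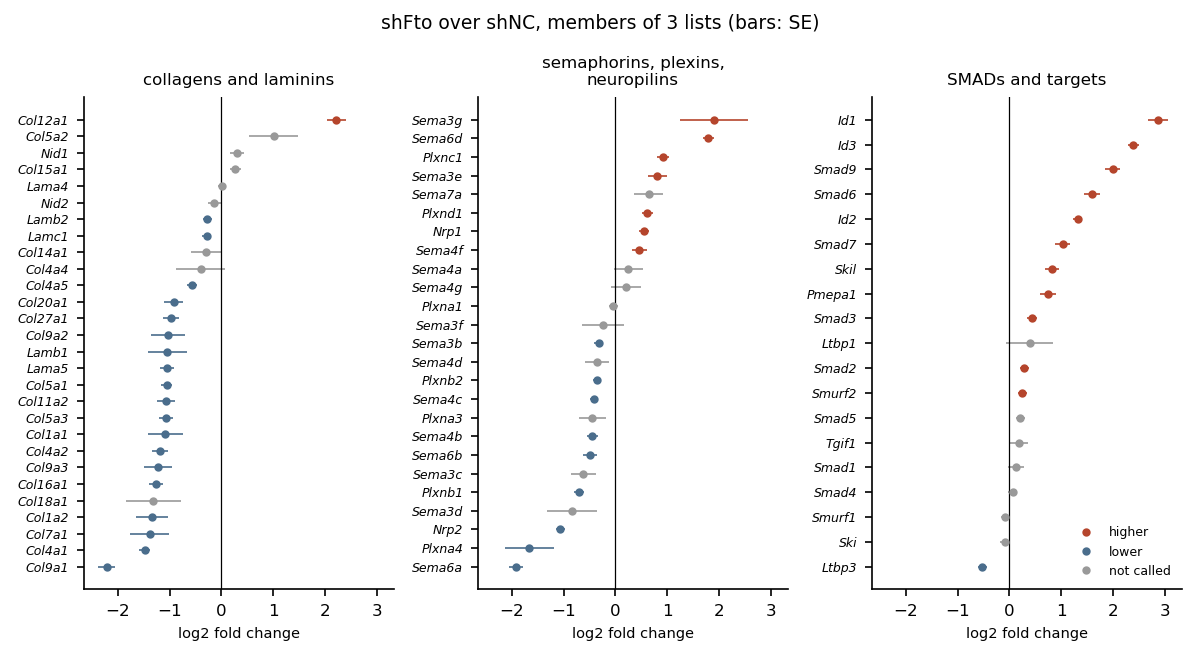
Log2 fold change of shFto over shNC for each tested collagen and laminin gene (left), semaphorin, plexin and neuropilin gene (middle) and SMAD or SMAD target gene (right), with the standard error as a bar and colour for the call. The collagens and laminins run from -2.22 for Col9a1 to 2.22 for Col12a1, and the SMAD list from -0.52 for Ltbp3 to 2.87 for Id1.

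Glycolysis, the step-by-step conversion of glucose to pyruvate and lactate, is named in the title of the series, and each step can be followed here. Of 31 tested genes for its steps and their control, 15 fell and 4 rose, with a median of -0.27 (-0.45 without shNC replicate 1). At the entry, hexokinase Hk1 had 151, 168 and 165 CPM in the shFto libraries, against 242, 248 and 239.9 CPM in the shNC libraries, while its isoenzyme Hk2 had 183, 255 and 177 CPM in the shFto libraries, against 210.4, 237 and 201 CPM in the shNC libraries. The values of Hk2 overlapped, and it passed as a fall without shFto replicate 2 alone (adjusted p = 0.0324). Phosphoglucose isomerase Gpi1 (-0.50), the phosphofructokinase Pfkp (-0.60) and aldolase Aldoa (-0.43) fell. Triosephosphate isomerase Tpi1 (-0.42) passed the test with groups that overlapped. Its call ended with DESeq2 (adjusted p = 0.114), with gene span modelled (0.0706, or 0.0724 with the replicate number as well) and without shFto replicate 1 (0.0607) or shNC replicate 3 (0.084, log2 fold change -0.27).

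The steps that yield ATP and lactate fell too. Gapdh had 2567, 2119 and 3188 CPM in the shFto libraries, against 3759.9, 3524 and 4585 CPM in the shNC libraries and Pgk1 had 728, 758 and 756 CPM in the shFto libraries, against 1056, 1105 and 1332 CPM in the shNC libraries, without overlap in either. Pgam1 (-0.75), Pkm (-0.52) and lactate dehydrogenase Ldha (-0.59) completed the row, while Ldhb (-0.22) did not pass. The use of pyruvate inside the mitochondrion is restrained by the pyruvate dehydrogenase kinases, of which Pdk3 (-0.52) fell. The lactate carrier gene Slc16a1 went the other way, with 131, 145 and 113 CPM in the shFto libraries, against 91.4, 91.3 and 80.7 CPM in the shNC libraries. Enolase, the step before pyruvate kinase, was uncertain: Eno2, its neuronal form, rose (0.98), but the main form has a near-identical copy that can share its reads. Gapdh, Pgk1, Aldoa, Pkm, Tpi1 and Ldha have pseudogenes that can share their reads.

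Other carbon pathways fell in part. Of 36 tricarboxylic acid cycle and anaplerosis genes, 12 fell and 2 rose, with a median of -0.11 (-0.15 to -0.05 over the alternative settings), the number that fell being 5 without shFto replicate 1 and 6 without shNC replicate 1. Idh3b (-0.46), Idh2 (-0.40) and the aminotransferase gene Got2 (-0.48) fell, and glutamine synthetase, encoded by Glul, rose (0.48). Of 29 fatty acid oxidation and lipid droplet genes, 10 fell and 2 rose (1 with DESeq2 and without any 1 library but shFto replicate 3 or shNC replicate 3). Cpt1c (-1.31) and the fatty acid carrier gene Fabp5 (-0.83) fell. Mgll, which releases fatty acids from monoacylglycerol, had 45.9, 52.5 and 49.3 CPM in the shFto libraries, against 13.3, 22.1 and 15.6 CPM in the shNC libraries (log2 fold change 1.52, SE 0.141, edgeR quasi-likelihood adjusted p = 1.98e-07). Ugp2, which makes the UDP-glucose used for glycogen and glycans, rose (0.96), and glycogen synthase Gys1 fell (-0.57).

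FTO's own superfamily was checked member by member. Of 52 tested genes, 18 fell, Fto included, and 7 rose, with a median of -0.12 (-0.07 without shFto replicate 1 or with library totals). The counts were 8 and 2 without shFto replicate 1, and the rises were 3 without shFto replicate 2 or with gene span modelled and 4 without shNC replicate 3. Alkbh5, the other enzyme known to remove m6A from messenger RNA, had 197, 209.5 and 235 CPM in the shFto libraries, against 236, 244 and 204 CPM in the shNC libraries, and the values overlapped (log2 fold change -0.09, SE 0.0886, edgeR quasi-likelihood adjusted p = 0.455). Alkbh2, a DNA repair demethylase, had 9.15, 7.76 and 7.29 CPM in the shFto libraries, against 20.3, 14.3 and 20 CPM in the shNC libraries (log2 fold change -1.16, SE 0.165, edgeR quasi-likelihood adjusted p = 3.18e-05). Alkbh1 (-0.60) fell, and Alkbh3, Alkbh4, Alkbh6, Alkbh7 and Alkbh8 did not pass. Egln1, the oxygen-sensing prolyl hydroxylase of HIF, had 83.8, 105 and 103 CPM in the shFto libraries, against 159.8, 188 and 178 CPM in the shNC libraries. The histone demethylase genes Kdm3b (-0.42) and Kdm4b (-0.49) and the hydroxylase gene Jmjd6 (-0.43) fell, and Tyw5 (0.57), which modifies transfer RNA, rose. Tet1 (-0.78) and Tet3 (-0.26) passed the test, but the call of Tet1 ended without shFto replicate 1 (log2 fold change -0.52, adjusted p = 0.146) or shNC replicate 2 (0.0758), and that of Tet3 with library totals (0.0778) and without any library but shFto replicate 3 or shNC replicate 3 (up to 0.143).

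Lysosomes digest cargo at the low pH set by the V-ATPase, and share much of their make-up with melanosomes. Of 47 tested lysosome and V-ATPase genes, 24 rose and 3 fell, with a median of 0.23, and none changed 2-fold. The number that rose was 15 without shFto replicate 1. Ctsd, a lysosomal protease, had 1158, 1142 and 1183 CPM in the shFto libraries, against 838, 804 and 942 CPM in the shNC libraries (log2 fold change 0.43, SE 0.0851, edgeR quasi-likelihood adjusted p = 0.000736). The membrane protein gene Laptm4b (0.59), the proton pump subunit gene Atp6v0a1 (0.54) and Lamp2 (0.69) rose, but Lamp1, the sister of Lamp2, fell (-0.40), as did another pump subunit, Atp6v0a2 (-0.31). Outside this list, Stx7, a syntaxin of late endosomes, had 308, 334 and 278 CPM in the shFto libraries, against 127, 111 and 131 CPM in the shNC libraries (log2 fold change 1.32, SE 0.0897, edgeR quasi-likelihood adjusted p = 2.23e-09). For E-box letters, 4 of 14 lysosome genes that rose and have a window held either site, against 14 of 21 of the other members. Of 36 autophagy genes, 11 rose (6 without shFto replicate 1 or shNC replicate 3), including the receptor gene Optn (0.69) and Gabarapl1 (0.57), and 4 fell, including Atg9a (-0.49).

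Genes of the defence against oxidants changed more often upward than downward. Of 41 tested NRF2, glutathione and iron genes, 17 rose and 3 fell, with a median of 0.21 (0.14 with gene span modelled). The falls were 1 without shFto replicates 1 or 2 and 5 without shFto replicate 3. The summed level of the list was 10643 to 11751 CPM in shFto and 10696 to 12327 CPM in shNC libraries, which overlapped. Slc7a11, the cystine importer that feeds glutathione synthesis, had 24, 22.2 and 21.8 CPM in the shFto libraries, against 6, 5.69 and 3.72 CPM in the shNC libraries. Slc40a1, the iron exporter ferroportin, had 20, 22.8 and 21.2 CPM in the shFto libraries, against 7.75, 9.7 and 9.76 CPM in the shNC libraries (log2 fold change 1.22, SE 0.142, edgeR quasi-likelihood adjusted p = 3.38e-06), and Mgst1, a membrane glutathione transferase, a log2 fold change of 1.05. The peroxiredoxin gene Prdx2 fell (-0.49). Gpx4, which repairs lipid peroxides, passed as a fall (-0.34) with groups that overlapped, and its call ended without shFto replicate 1 (adjusted p = 0.0894), shFto replicate 2 (0.0525) or shNC replicate 3 (0.148, log2 fold change -0.18).

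Immune signalling lists had shares of called genes at or below the 32.8% of all tested genes. Of 25 tested NF-kappaB genes, 5 (20%) were called (3 without any 1 library but shFto replicate 3), and of 34 interferon receptor, JAK-STAT and IRF genes, 7 (20.6%; 4 without shFto replicate 1), among them Irf1 (-0.58), Jak1 (-0.34) and Socs3 (-0.72) downward. Of 22 nucleic acid sensing genes, 7 rose (4 without shFto replicate 1, shNC replicate 1 or shNC replicate 2) and 0 fell (1 without shNC replicate 2), including the receptor for double-stranded RNA Tlr3 (0.92), the kinase gene Eif2ak2 (0.38) and the helicase gene Ifih1 (0.45). Of 33 apoptosis regulators, 8 rose (4 without shFto replicate 1) and 2 fell (0 or 1 with library totals or gene span modelled and without any 1 library but shFto replicate 3 or shNC replicate 2), with Cflar, an inhibitor of caspase-8, at 94.5, 105 and 93.7 CPM in the shFto libraries, against 55.8, 63 and 52.7 CPM in the shNC libraries. Of 44 SR and hnRNP splicing proteins, 4 rose and 8 fell (3 without shFto replicate 1 and 5 with gene span modelled). Of 19 tested Hox genes, 1 (5.26%) was called, Hoxb9 (1.44), named after its value was seen, and 2 rose with library totals, with gene span modelled or without shNC replicate 3.

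WNT and NOTCH genes changed member by member. Of 16 WNT nuclear factors and feedback targets, 5 fell, led by the coactivator gene Bcl9l (-1.09), Lgr4 (-0.78) and Tcf7l1 (-0.66), and 3 rose, among them Axin2 (0.79), a target that restrains the pathway. The receptor gene Fzd2 had 4.1, 5.67 and 6.58 CPM in the shFto libraries, against 14.9, 15.4 and 14 CPM in the shNC libraries. Of 16 NOTCH genes, 3 fell and 0 rose, with Notch1 at 1.7, 1.13 and 0.76 CPM in the shFto libraries, against 9.42, 7.61 and 6.6 CPM in the shNC libraries (log2 fold change -2.70, SE 0.29, edgeR quasi-likelihood adjusted p = 1.39e-06).

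Cell cycle and repair genes moved both ways. Shares called were 45.2% for the cyclin list and 37.8% for the repair list, against 32.8% of all tested genes. Cdk2, the S phase kinase, had 833, 862 and 851 CPM in the shFto libraries, against 497, 502 and 529 CPM in the shNC libraries (log2 fold change 0.74, SE 0.0794, edgeR quasi-likelihood adjusted p = 1.42e-06), but it lies wholly within the span of Pmel, which also rose. Falls were seen in Ccne1 (-0.38) and E2f1 (-0.38), a cyclin partner and an activator of the same phase. Of 31 cyclins, CDKs and their inhibitors, 9 rose and 5 fell, the falls being 3 without shFto replicates 1 or 2 or shNC replicate 3 and with library totals or gene span modelled. Of 45 DNA repair genes, 10 rose (5 or 6 without any 1 library but shFto replicate 3 or shNC replicate 3, and with gene span modelled), led by Brca1 (0.83), Brca2 (0.47) and Prkdc (0.46), and 7 fell (4 without shFto replicate 1), among them the excision repair genes Ercc2 (-0.45) and Ercc1 (-0.49).

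Gene families defined by symbol alone were counted in the same way. Of 34 tested histone genes, 27 fell and 0 rose, with a median of -1.09, and of 12 tubulin genes 8 fell and 1 rose, with Tubb4b (-0.75) and Tubb2b (-0.62) among the falls. Of 77 mitochondrial ribosomal protein genes, 24 fell and 1 rose, with a median of -0.14 that was -0.04 without shNC replicate 3 and -0.07 with gene span modelled. The rises among them were 6 with gene span modelled, 3 with library totals and 0 to 2 without 1 library. These are short genes. Of 20 P-type ATPase genes, 9 rose and 4 fell, the falls being 1 or 2 with library totals and without any 1 library but shNC replicate 3. Of 10 sialyltransferase genes, 5 rose and 2 fell (1 with library totals and without shFto replicates 1 or 2 or shNC replicate 1), with St6gal1 at 41.8, 45.4 and 48 CPM in the shFto libraries, against 22, 28 and 23.7 CPM in the shNC libraries. Of 18 RhoGEF genes, 8 fell and 2 rose, and Prex1, an activator of Rac with another symbol, had 10.9, 9.33 and 9.57 CPM in the shFto libraries, against 28.6, 29.5 and 28 CPM in the shNC libraries. Of 315 Zfp zinc finger genes, 44 rose and 22 fell, which is 21% called. The rises were 24 without shFto replicate 1, and the falls were 37 without shFto replicate 3 and 13 without shNC replicate 1. Histone, tubulin and zinc finger genes have close copies, so single members are uncertain.

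Some genes were nearly silent in one group. Cdhr2, a protocadherin of the brush border, had 2, 1 and 0 counts in the shFto libraries, against 11, 33 and 19 in the shNC libraries, a CPM ratio of shNC over shFto of 23.5 (exact 95% interval 7.69 to 117, counting error only). Tlr1, a receptor for bacterial lipoproteins, had 12, 9 and 16 counts in shFto, against 3, 0 and 0 in shNC, a CPM ratio of shFto over shNC of 11 (3.48 to 55.8). Coro1a, an actin regulator of leukocytes and one of the immune markers, had 24, 11 and 13 counts in shFto, against 1, 1 and 0 in shNC libraries. In these 3 genes, chosen for at most 3 counts in one group and at least 30 in the other, no shFto library overlapped a shNC library. The 3 shNC counts of Tlr1 all came from replicate 1, and without shFto replicate 1 Coro1a was under the filter. Cyp26b1, which clears retinoic acid, had 0.639, 0.785 and 0.861 CPM in the shFto libraries, against 11.2, 9.64 and 9.83 CPM in the shNC libraries (log2 fold change -3.74, SE 0.257, edgeR quasi-likelihood adjusted p = 2.49e-09).

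Other large changes were in genes of varied kinds. Rhox5, an X-linked homeobox gene, had 78.6, 80.6 and 75.9 CPM in the shFto libraries, against 25.1, 24.4 and 24 CPM in the shNC libraries (log2 fold change 1.68, SE 0.0927, edgeR quasi-likelihood adjusted p = 1.09e-10), and it has relatives in its cluster. Clvs1, a lipid-binding protein of endosomes, had a log2 fold change of -1.47. The RNA of ribonuclease P, Rpph1, had 33.2, 42.6 and 39.8 CPM in the shFto libraries, against 149.6, 136 and 69.4 CPM in the shNC libraries. Ribosomal RNA counted under Rn45s was 1733 ± 322 CPM in shFto and 2843 ± 462 CPM in shNC cells (SD, n = 3 each), and how much of it each library preparation removed is not given in the sources used here. Gapdh, Pkm, Rn45s and the intermediate filament gene Vim (-0.35) were among the 10 largest falls by CPM difference. Cytosolic ribosomal protein genes were among these falls too, with log2 fold changes from -0.75 to -0.44.

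Calls were not spread evenly over the chromosomes. On chromosome 16, 131 of 371 tested genes (35.3%) rose and 11 (2.97%) fell, against 15.9% and 16.9% of all tested genes, and the median log2 fold change there was 0.23. On chromosome 18, 33 of 299 (11%) rose and 72 (24.1%) fell, with a median of -0.13, the lowest of the 20 chromosomes. The shift of chromosome 16 was seen in each library. Relative to the mean of all 6 libraries, the median gene stood at 0.12, 0.11 and 0.09 on the log2 scale in the shFto libraries, against -0.09, -0.10 and -0.10 in the shNC libraries. It ran along the chromosome: in each window of 10 Mb with 20 or more tested genes the median was above 0, from 0.14 to 0.34. After the median of genes of like span was taken away, chromosome 16 stood at 0.19. Genes named above that lie on chromosome 16 are Snai2, Etv5, Fstl1, St6gal1, Pros1 and Prkdc, which rose, and Itgb5, which fell. On chromosome 18 lie Mbp, Sema6a, Pcdh1, Cdh2, Nrg2, Ndst1, Bambi and Kdm3b, which fell, and Syt4, described below, which rose.

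Open chromatin shifted with the same chromosomes. Of the ATAC peaks, taken as the 67427 strongest of each library, 3.26%, 3.28% and 3.24% lay on chromosome 16 in the shFto libraries, against 3.07%, 3.06% and 2.99% in the shNC libraries. The ratio of the means was 1.07, the highest of the 20 chromosomes, and that of chromosome 18 was 0.933, the lowest. Chromosome 12 was close to the latter, at 0.942. The groups did not overlap on chromosomes 16 and 18, nor on chromosomes 3, 4, 6, 9, 10, 12, 17 and 19. Across the 20 chromosomes the RNA median and the ATAC ratio had a Pearson r of 0.768 and a Spearman rho of 0.687, and 0.619 and 0.571 without chromosomes 16 and 18. The RNA and ATAC libraries are of the same 2 cell groups, and chromosomes are not independent samples. The part of the chromosome shift in the change of any single gene was not tested.

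**Figure D4:**
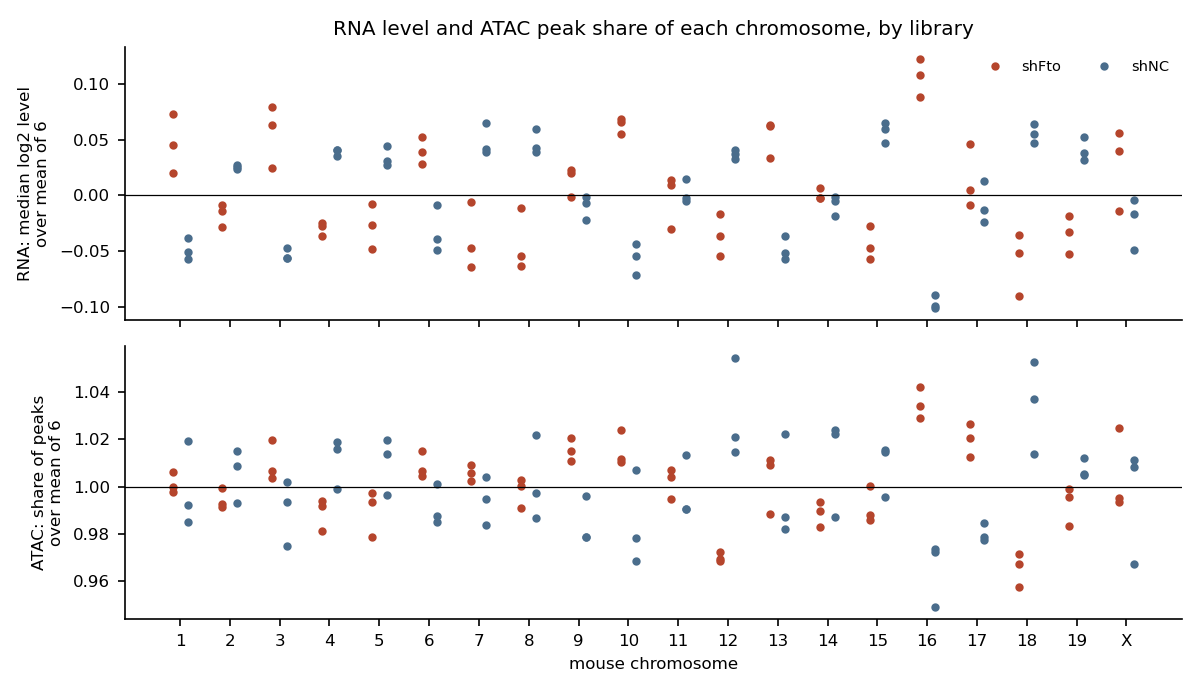
Each chromosome in the shFto (left) and shNC (right) libraries. Above, the median over its tested genes of the log2 RNA level relative to the mean of 6 libraries; below, its share of the ATAC peaks relative to the mean of 6 libraries. Chromosome 16 has RNA medians of 0.09 to 0.12 in shFto and -0.10 to -0.09 in shNC libraries, and its ATAC shares part in the same direction.

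Smaller stretches stood out as well. On chromosome 10 between 110 and 120 Mb, 21 of 37 tested genes rose and 0 fell, with a median of 0.41, the highest of all such windows. On chromosome 13 between 20 and 30 Mb, 29 of 52 fell and 1 rose, with a median of -0.60, the lowest, and this window holds a cluster of histone genes.

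The length of a gene on the chromosome went with its change. In the shortest quintile of genes, under 7.84 kb, 24.6% fell and 7.92% rose, and in the longest quintile, over 67.8 kb, 11.6% fell and 23.3% rose. The medians were -0.13 and 0.08. One library stood furthest out: relative to the mean of all 6 libraries, shNC replicate 3 stood at 0.13 on the log2 scale in the shortest quintile and at -0.11 in the longest. Without that library, 1649 genes rose and 1703 fell, among them 24 histone, 7 tubulin, 21 mitochondrial ribosomal protein and 12 glycolysis genes downward, with medians of -1.09, -0.29, -0.04 and -0.27. With gene span modelled, 20, 7, 20 and 14 of these fell, with medians of -0.80, -0.26, -0.07 and -0.27.

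Calls were more frequent at higher levels. In the lowest quintile by level, up to 7.61 CPM, 17.9% of genes were called, and in the highest, from 104 CPM, 44.1%. The highest quintile leaned downward: of its 2344 genes, 641 fell and 392 rose, with a median log2 fold change of -0.06. In the lowest, 223 of 2344 fell and 196 rose. The gene lists above were not compared with genes of like level, so falls in lists of abundant genes may partly share this lean. The median size of the log2 fold change was 0.42 in the lowest quintile and 0.19 in the highest.

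m6A peaks were listed once for each group, so their difference has no replicates. The labels of the m6A-seq samples of both groups give a treatment time, which those of the RNA-seq libraries do not. The shFto list held 10811 peaks and the shNC list 8479. Of the genes that rose, 61.5% had a peak in the shFto list and 49.1% in the shNC list, against 48.9% and 42.7% of the genes that fell. A peak in the shFto list and none in the shNC list was found for 14.7% of the genes that rose, 9.05% of those that fell and 11.6% of those not called. The first of these shares was above the second in each quintile of genes by level, with 17.6% against 9.05% in the highest and 13.9% against 12.7% in the third. Peaks are found more readily in transcripts with more reads, and its part here was not tested. Trpm1 had 2 peaks in the shFto list, with a fold enrichment of up to 30.9, and 0 in the shNC list. Met had 5 in the shFto and 6 in the shNC list, Fto had 1 in each, and Id3, Mbp, Col4a1 and Oca2 had none in either.

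**Figure D5:**
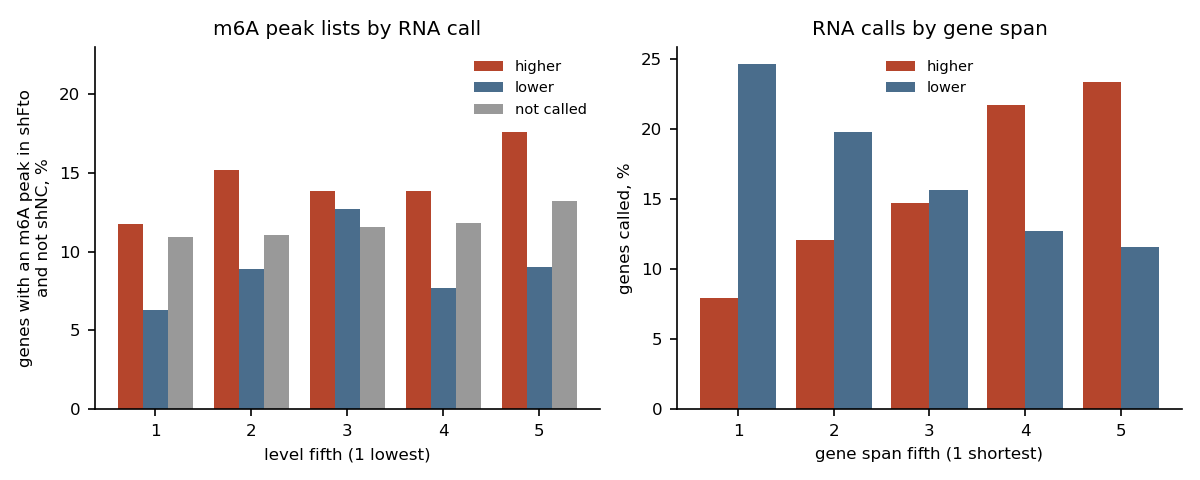
Left, the percentage of genes with an m6A peak in the shFto list and none in the shNC list, by RNA call, in quintiles of mean RNA level; the genes that rose run from 11.7% to 17.6% and those that fell from 6.28% to 12.7%. Right, the percentage of genes called higher or lower in shFto, in quintiles of gene span; the share that rose is 7.92% in the shortest and 23.3% in the longest quintile.

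ATAC peaks within gene bodies leaned the same way as the RNA. Of the genes that rose and hold a promoter window in the table, 32.9% had more peaks in the gene, summed over 3 libraries, in shFto than in shNC cells and 19.9% had fewer, against 19.7% more and 27.5% fewer for the genes that fell. For genes not called these were 24.4% and 21.4%. Promoters themselves were mostly open in all libraries: a peak lay over the window in all 6 for 90.9% of the genes that rose, 88.6% of those that fell and 88.6% of those not called. Among genes changed at least 2-fold this share was 62.4% for those that rose and 58.8% for those that fell.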

How the data were processed

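Raw counts by gene symbol were deposited for each library in 1 table, per the file headers. A stranded kit for total RNA was used, per the labels' protocols. Tools named in the submitters' processing notes are STAR 2.7.0f, Trim Galore 0.6.0, MACS2 2.1.3, Bowtie2 2.3.5, Picard and deepTools, with the build mm10 and no statement of their roles. The counting tool, its strand setting and the annotation are not given in the sources used here. The authors' ATAC-seq peak lists, called per library, give a fold enrichment ratio and a -log10 q value for each peak, and the deposited m6A lists give a ratio of the antibody library to its input. These are the peak callers' values.

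Samples were grouped by their labels. The test was edgeR's (version 4.0.16, R 4.3.3; TMM, filterByExpr, quasi-likelihood F test, no covariate, Benjamini-Hochberg over all 11718 tested genes, threshold 0.05). The standard error is the log2 fold change divided by the square root of F. The common biological coefficient of variation was 0.0906. The pipeline was tested on simulated data. Totals of 11152404 to 19665589 counts limit the precision of low genes. Exact intervals of count ratios cover counting error only.

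The gene lists, families and tests were chosen with earlier results of these data known, so no list is independent support. Named genes were Fto, tested genes within 2 Mb of it, up to 3 members per list and direction with the smallest adjusted p (up to 2 per family), further regulators, superfamily members and glycolysis genes, the 20 largest rises and falls from 10 CPM without overlap, the 10 largest CPM differences, and called genes with at most 3 counts in one group and at least 30 in the other. Several further genes, such as Slc24a4, Tyrp1, Id1 and Smad6, fall under more than 1 part of this rule.

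Alternatives were DESeq2 1.42.0, its size factors in edgeR, library totals, no filter, each library left out, and the replicate number as a block. An offset for gene span was added after seeing the data. Gene spans, biotypes and promoter windows came from RefSeq tables (GRCm38.p6), which hold no exon lengths. The 67427 strongest ATAC peaks of each library, by -log10 q, were kept, and an overlap of 1 base counted. Other steps used Python 3.11.15, pandas 2.3.3, NumPy 2.4.6 and Matplotlib 3.10.9. The T cell counts were not used here. Some genes meeting the naming rule are left out of the text.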

Additional observations from a re-analysis of the deposited data

How the results depend on the processing

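Of 227 named genes, 211 kept their side of the threshold under every alternative that gave a value, and 16 lost or gained a call under at least 1. The direction of none of the called genes turned. Some genes that were not called, such as Aktip, Alkbh6, Alkbh7 and Alkbh8, changed sign under an alternative. The number of called genes, 3841, ranged from 2468 without shFto replicate 1 to 4423 without shFto replicate 3, that of higher genes from 1222 to 2123, and that of lower genes from 1246 to 2300 over the settings that leave out 1 library. It was 3848 with DESeq2's size factors, 3964 with library totals, 3563 with DESeq2 and 4036 with no filter. With library totals 60% of the calls were higher, against 48.5% with TMM.

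The replicate numbers are shared by the groups, but same-numbered libraries did not deviate together (correlations of 0.014, 0.0365 and -0.017). With the replicate number as a block, 3736 genes were called, 1810 higher and 1926 lower, and 3465 with gene span modelled too. Gene span alone gave 3749. Offsets for exon length, also with the block, were not run, because the annotation used here holds no exon lengths. The chromosome 16 median lay between 0.19 and 0.28 over all alternatives, and that of chromosome 18 between -0.14 and -0.07. In the lowest quintile by level 17.9% were called, and smaller changes of low genes may be missed at this depth.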

Other observations

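Among enzymes that write and erase marks on DNA and histones, more were lower than higher. Of 60 tested, 17 were lower and 7 higher in shFto, with a median of -0.07, the number higher being 4 without shFto replicate 1, shNC replicate 1 or shNC replicate 3 and with gene span modelled. The DNA methyltransferase gene Dnmt3b had 15.2, 16 and 16.8 CPM in the shFto libraries, against 26.7, 28.1 and 24.7 CPM in the shNC libraries (log2 fold change -0.73, SE 0.119, edgeR quasi-likelihood adjusted p = 0.000142). The histone demethylase gene Kdm1a (-0.47) and the deacetylase gene Hdac5 (-0.49) fell as well. Genes of Polycomb complexes were among those that rose. Suz12, a core subunit of the complex that methylates histone H3, had 194, 226 and 171 CPM in the shFto libraries, against 129, 143 and 131 CPM in the shNC libraries (log2 fold change 0.54, SE 0.0932, edgeR quasi-likelihood adjusted p = 0.000203), and Rnf2, a ubiquitin ligase of the other Polycomb complex, had a log2 fold change of 0.57. In each of these genes the groups did not overlap.

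Folate enzymes changed in both directions. Of 28 tested serine and one-carbon genes, 8 rose and 4 fell (5 and 2 without shFto replicate 1). Aldh1l1, a cytosolic dehydrogenase of formyl-tetrahydrofolate, had 62.1, 66.7 and 60.9 CPM in the shFto libraries, against 37.4, 36.4 and 35.2 CPM in the shNC libraries, and its mitochondrial relative Aldh1l2 rose by less (0.59). Ahcy, which clears the by-product of methyl transfer, had 94.3, 88.3 and 129 CPM in the shFto libraries, against 166, 155 and 169 CPM in the shNC libraries (log2 fold change -0.65, SE 0.108, edgeR quasi-likelihood adjusted p = 0.000162), and Mthfd1 fell (-0.41). Among 31 tested targets of YAP, TEAD and SRF, 7 rose (4 without shFto replicate 1) and 8 fell. The light chain gene Myl9 (1.25) and the matricellular genes Ctgf (0.68) and Cyr61 (0.51) rose, while Amotl2 (-0.63), Ajuba (-0.55) and Actn1 (-0.53) fell. Of 22 clock genes, 5 fell and 3 rose (1 without shNC replicate 1): Cry2 had 14.6, 16.8 and 16.8 CPM in the shFto libraries, against 27.3, 28.1 and 27.1 CPM in the shNC libraries, and Dbp had 3.14, 3.23 and 4.41 CPM in the shFto libraries, against 8.81, 10.2 and 6.74 CPM in the shNC libraries (log2 fold change -1.25, SE 0.222, edgeR quasi-likelihood adjusted p = 0.000292).

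Genes of synapses were also measured. Syt4, a vesicle protein, had 438, 509.6 and 362 CPM in the shFto libraries, against 237, 250.4 and 235 CPM in the shNC libraries (log2 fold change 0.86, SE 0.1, edgeR quasi-likelihood adjusted p = 3.74e-06), and the kainate receptor genes Grik2 (0.47) and Grik5 (-1.79) moved apart. Of 28 tested long noncoding RNAs, 5 rose (3 without shFto replicates 1 or 2 or shNC replicates 1 or 2) and 7 fell. Snhg20 had 14.4, 13.5 and 20.7 CPM in the shFto libraries, against 28.8, 36.1 and 40 CPM in the shNC libraries, and Gas5 had 189, 205 and 143 CPM in the shFto libraries, against 119, 108 and 153 CPM in the shNC libraries. The groups of Gas5 overlapped, although the gene passed the test (log2 fold change 0.50, SE 0.122, edgeR quasi-likelihood adjusted p = 0.00412). Of 12 tested imprinted genes, Mest had 35.1, 35.1 and 32.5 CPM in the shFto libraries, against 66.4, 64.1 and 59.5 CPM in the shNC libraries and fell (-0.89).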
